A study of Rattus norvegicus with 3 samples.

Results

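The Dor peaks of rat oligodendrocyte precursor cells (OPC) and of immature oligodendrocytes (iOL) were set side by side. All peaks deposited for both libraries on chromosomes 1 to 20 were taken, 119539 of the 291218 peaks of the whole series, with 62263 from OPC and 57276 from iOL. A further 2469 OPC and 2405 iOL peaks lay on other sequences and were left out. Peaks of the 2 libraries that overlapped by at least 1 base were paired and called shared.

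Per the labels, both libraries came from primary rat OPCs, which were shaken off mixed glial cultures that had been fed medium conditioned by B104 cells. The OPC library is the undifferentiated stage, and its growth medium held 10 ng/ml of PDGF-AA with 20 ng/ml of bFGF. The iOL library is the stage named D1 in the design text, and the differentiation medium held 15 nM of the thyroid hormone T3 with 10 ng/ml of CNTF. Both were made by CUT&Tag with the same rabbit antibody against Dor, with 1 library for each stage. Strain, age, sex and animal numbers were not stated in the labels. The lists hold positions without gene names, so the labelled cell types were not checked against marker genes.

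Dor, also called Tp53inp2, is a protein that shuttles between nucleus and cytoplasm. It takes part in autophagy and acts as a coactivator of nuclear receptors, the thyroid hormone receptor among them. T3 drives OPCs out of the cell cycle and into differentiation, and PDGF-AA and bFGF keep them dividing. In CUT&Tag the antibody tethers a transposase, which cuts and tags the DNA beside the bound protein. A coactivator is held on DNA through other proteins, so a peak marks where Dor lay near chromatin and not a sequence that it reads itself. A peak's summit is the base covered by the most fragments, and this number is its pileup.

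The libraries differed in depth. The genome background, the lowest background that the peak caller used, was 1.47 fragments per base in OPC and 0.540 in iOL, so that the iOL background was 0.367 times the OPC one. Strength is given throughout as a peak's pileup over the genome background of its own library. The weakest OPC peak had 9 fragments, 6.11 times the background, and the weakest iOL peak had 6 fragments, 11.1 times the background. Weak sites between these strengths could therefore be listed in OPC only. Neither stage had a replicate, so no spread between samples could be measured and no test was made. Intervals are 95% intervals and cover counting error alone, and fragments that arose as copies in PCR would make them too narrow.

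Most Dor peaks were found in only 1 of the libraries. Of the OPC peaks, 5810 of 62263 overlapped an iOL peak (9.33%, exact Clopper-Pearson interval 9.10 to 9.56%), and 56453 did not. Of the iOL peaks, 5829 of 57276 overlapped an OPC peak (10.2%, interval 9.93 to 10.4%), and 51447 did not. The OPC peaks covered 28.4 Mb and the iOL peaks 23.7 Mb, which is 1.04% and 0.863% of the 2745 Mb spanned. They had 2.14 Mb in common, 7.53% of the OPC bases and 9.03% of the iOL bases. The overlaps made 5844 pairs, of which 5746 joined peaks that each had a single partner. In the others, 34 OPC peaks lay over 2 iOL peaks and 15 iOL peaks lay over 2 OPC peaks.

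Strong peaks were shared far more often than weak ones, in both libraries. Of OPC peaks under 8 times the background 2.45% were shared, and of those at 12 to 15 times 7.92%. The share was 33.7% at 20 to 30 times, 76.5% at 50 to 100 times and 95.1% at 100 times or more, where 98 of 103 peaks had an iOL partner. Of iOL peaks at 8 to 12 times the background 3.29% were shared. The iOL share was 15.3% at 20 to 30 times, 93.6% at 50 to 100 times and 100% at 100 times or more (27 of 27 peaks, interval 87.2 to 100%). Between 30 and 50 times the background the shares had overlapping intervals, at 53.5% for OPC (51.4 to 55.6%) and 54.0% for iOL (52.2 to 55.8%). Below that, at 20 to 30 times, the OPC share was the higher, and above it, at 50 to 100 times, the iOL share was the higher. The intervals did not overlap in either class. The share that random placement of peaks of these widths would give was not estimated. How many pairs of the weak classes met by placement alone is therefore not known.

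**Figure D1:**
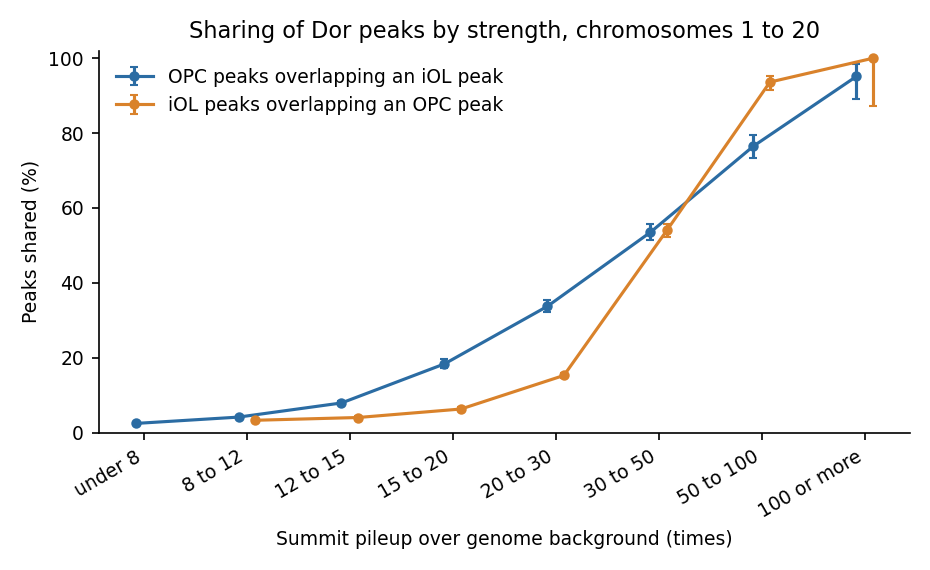
Share of Dor peaks that overlapped a peak of the other library (percent), by summit pileup over the genome background of the peak's own library. Points are shares in OPC (blue) and iOL (orange), and bars are exact 95% intervals for counting error. Both lines climb from under 5% in their weakest class to over 95% at 100 times or more, and they meet at 30 to 50 times.

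The order of the libraries depended on the scale. At the same number of fragments, the iOL peak was shared more often. Of peaks with exactly 20 fragments, 7.77% were shared in OPC (108 of 1390) and 54.4% in iOL (180 of 331). The same 20 fragments stood 13.6 times above the background in OPC and 37.02 times above it in iOL. Thinning the OPC list in expectation to the iOL background would leave 25542.5 peaks, of which 17.1% would overlap an iOL peak. The iOL list held 2.24 peaks for each of these. Only peaks already listed in OPC were thinned, and sites below the OPC cutoff that a shallower library could list were not counted. The 2.24 is therefore not a measure of an iOL excess at equal depth.

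Over all strengths, the median shared peak was stronger and wider than the median unshared one in both libraries. In OPC the median shared peak had 31 fragments (21.03 times the background) and was 607.5 bases wide, and the median unshared peak had 13 fragments (8.82 times) and was 392 bases wide. In iOL the median shared peak had 14 fragments (25.9 times) and was 442 bases wide, and the unshared one had 8 fragments (14.8 times) and was 385 bases wide. The authors' fold over the local background had a median of 7.68 for shared and 5.25 for unshared OPC peaks, and of 7.48 and 5.42 for iOL peaks. The local background stood above the genome background at 79.7% of shared and 33.6% of unshared OPC peaks, and at 77.5% and 36.2% of iOL peaks. Both measures rose with strength. Within the weaker classes the local background was still raised more often at shared peaks. It was raised at 76.4% of shared and 57.5% of unshared OPC peaks at 12 to 15 times. For iOL peaks at 20 to 30 times the values were 85.8% and 60.4%. At 20 to 30 times the background the local background was raised at 99.5% of shared and 98.4% of unshared OPC peaks, and from 30 times on at 100% of both. The median fold was lower for shared than for unshared OPC peaks at 12 to 15 times (6.96 against 7.68) and 15 to 20 times (7.48 against 8.03). It was also lower for shared iOL peaks at 15 to 20 times (6.40 against 6.49) and 20 to 30 times (7.54 against 7.83). At 30 to 50 times the iOL values were 9.30 against 10.5.

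Shared peaks were also the wider ones within a class of strength. A wider peak has more bases at which to meet the overlap rule, and the part of this in the difference was not tested. Between 30 and 50 times the background, the median shared OPC peak was 804 bases wide and the unshared one 662 bases. Shared and unshared iOL peaks of that strength were 508 and 437 bases wide. In the weakest class of each library the difference was small. The widths were 386 and 381 bases in OPC under 8 times and 383 and 381 bases in iOL at 8 to 12 times. The narrowest listed peak had 303 bases in OPC and 299 in iOL.

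Few unshared peaks missed a partner by a narrow gap. The median distance to the nearest peak of the other library was 12108 bases for unshared OPC peaks and 11505 for unshared iOL peaks. To the nearest peak of their own list it was 12046 and 13858 bases, so these gaps were about the spacing of the lists. Within 1000 bases of a peak of their own list lay 4.56% and 3.14%. A gap of at most 1000 bases to the other library was found for 6.93% of unshared OPC and 7.33% of unshared iOL peaks. For a gap of at most 5000 bases the percentages were 25.6 and 27.4. A gap under 10 bases was found for 50 OPC and 52 iOL peaks. On the other side of the rule, 89 pairs overlapped by 10 bases or fewer.

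The summits of paired peaks lay a median of 167 bases apart (interval 160 to 172, 5844 pairs). The quartiles were 72 and 309 bases and the largest distance was 1426. Overlap itself bounds this distance by the widths of both peaks. The summits were within 50 bases of each other in 17.8% of the pairs, within 100 bases in 33.2% and within 500 bases in 91.4%. They fell on the same base in 23 pairs. Each summit lay inside the other peak in 59.0% of the pairs, and neither did in 14.9%. The iOL summit lay at the lower coordinate in 3029 pairs and at the higher one in 2792, with a median shift of -10 bases (-18 to -4).

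Summits were closer in strong pairs. A pair's strength was taken as the geometric mean of both peaks' strengths. The median distance was 185 bases at 8 to 12 times the background (171 to 199, 850 pairs), 139 bases at 30 to 50 times (133 to 150, 1456 pairs) and 105 bases at 50 to 100 times (91 to 121, 494 pairs). At 100 times or more it was 61 bases (39 to 109, 33 pairs). The distance was longest at 12 to 15 times, with 206 bases (193 to 220). At 8 to 12 times the paired peaks had median widths of 392 bases in OPC and 386.5 in iOL. The distance that overlap alone would give at such widths was not estimated. Within 100 bases lay 28.1% of the pairs under 20 times the background, 34.3% of those at 20 to 50 times and 49.0% of those at 50 times or more. In this last class 90.3% of the pairs had each summit inside the other peak, against 43.1% under 20 times.

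**Figure D2:**
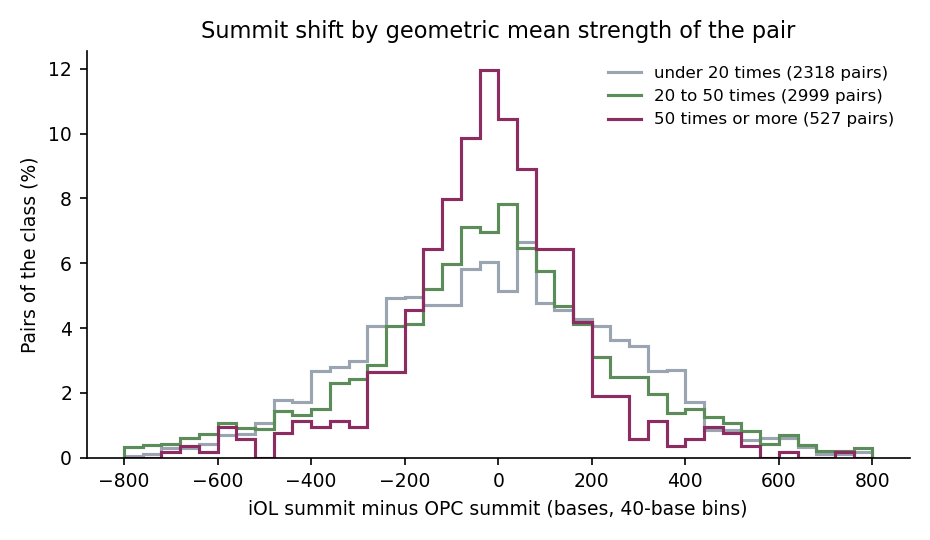
Position of the iOL summit minus that of the OPC summit (bases, in bins of 40 bases) as a share of the pairs of each class, for pairs under 20 times the background (grey, 2318 pairs), at 20 to 50 times (green, 2999 pairs) and at 50 times or more (purple, 527 pairs). All classes centre near 0, and the strongest is the narrowest. The axis ends at 800 bases either way and leaves out 28, 62 and 7 pairs.

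Paired peaks were narrower in iOL. Over all pairs the OPC peak had a median width of 610 bases and the iOL peak of 443 bases, and the iOL peak was narrower in 68.3% of the pairs (67.1 to 69.5%). The median ratio of iOL to OPC width was 0.816 (0.804 to 0.830), with quartiles of 0.573 and 1.07. The iOL peak lay wholly inside the OPC peak in 1732 pairs and the OPC peak inside the iOL peak in 410. In the others the borders were staggered, with the iOL peak towards lower coordinates in 1915 pairs and towards higher ones in 1787. The left border of the iOL peak lay a median of 46 bases further in and its right border 63 bases further in (a shift of -63), so that both edges contributed.

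Sorted by the geometric mean of both strengths, the narrowing was larger in the stronger pairs. Sorted by the iOL peak alone, the median ratio was under 1 in every class. It was then 0.928 (0.902 to 0.959) at 8 to 12 times and 0.728 at 50 to 100 times. The classes below are those of the geometric mean. At 8 to 12 times the background both peaks had about the same width, with medians of 392 and 386.5 bases. The median ratio was 1 (0.979 to 1.02). No listed peak was narrower than 303 bases in OPC or 299 bases in iOL. The parts of this lower limit, and of pairs that met by placement alone, in the trend were not tested. The ratio was 0.951 at 12 to 15 times (0.919 to 0.974) and 0.873 at 15 to 20 times. It was 0.734 at 20 to 30 times and 0.695 at 30 to 50 times (0.677 to 0.713). At 50 to 100 times the medians were 887 bases in OPC and 574 in iOL, with a ratio of 0.699. At 100 times or more the ratio was 0.762 (0.640 to 0.917, 33 pairs). Depth moved with this result, since a median pair at 30 to 50 times had 55 fragments in OPC and 21 in iOL, and the part of depth in the widths was not tested.

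**Figure D3:**
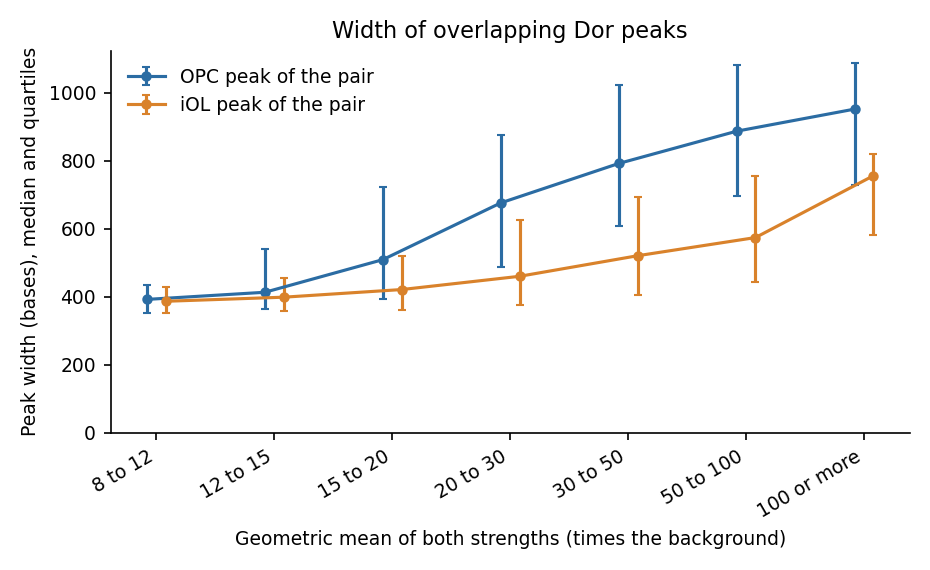
Width of the OPC peak (blue) and of the iOL peak (orange) of each pair, in bases, by the geometric mean of both strengths. Points are medians and bars run from the lower to the upper quartile. The points start together near 390 bases and separate clearly from 15 times the background on, to 887 and 574 bases at 50 to 100 times.

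Over all pairs, the iOL peak stood higher above its background than the OPC peak. The median ratio of iOL to OPC strength was 1.25 (1.22 to 1.26), with quartiles of 0.856 and 1.82, and iOL was the stronger in 65.3% of the pairs (64.1 to 66.5%). Strength was at least 2 times higher in iOL in 1151 pairs, which is 19.7% of all pairs, and at most 0.5 times the OPC strength in 309 pairs, which is 5.29%. This balance depended on the scale and on weak pairs. In the authors' folds over the local background 166 of the 5844 pairs were at least 2 times higher in iOL and 239 at most 0.5 times. Among the 2692 pairs of at least 20 times the background in both libraries the numbers were 131 and 179. With the libraries scaled by their strong shared peaks they were 2688 and 58 of the 5844 pairs. The strong shared peaks were the 688 pairs with OPC at 50 times or more, picked by OPC strength alone. Sorted that way the ratio was 0.697 at 50 to 100 times, against 1.36 sorted by the iOL peak. Scaling by them takes that low ratio as no change and so raised every ratio. On the scale of the genome backgrounds, the counting interval of the ratio lay wholly above 1 in 1000 pairs (17.1%). It lay wholly below 1 in 450 pairs (7.70%), above 2 in 78 (1.33%) and below 0.5 in 22 (0.376%).

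Sorted by the geometric mean of both strengths, the excess was found among weak pairs, where the limits of the lists differed. An OPC peak under 11.1 times the background can pair only with a stronger iOL peak, since no weaker iOL peak was listed. The part of pairs that met by placement alone in this excess was not tested. Among the 2692 pairs in which both peaks stood at 20 times the background or more, the median ratio was 0.992 (0.970 to 1.01). It turned round with strength: it was 1.74 for pairs at 8 to 12 times the background, 1.05 at 30 to 50 times, 0.876 at 50 to 100 times (0.842 to 0.909) and 0.704 at 100 times or more (0.618 to 0.867, 33 pairs). Sorted by the OPC peak alone, the ratio was 2.18 under 8 times and 0.522 at 100 times or more. Sorted by the iOL peak alone it stayed between 0.999 and 1.36 in every class and was highest at 50 to 100 times. The trend thus depended on how the pairs were sorted. The ratio of the authors' folds over the local background had a median of 0.971 (0.958 to 0.987) over all pairs.

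**Figure D4:**
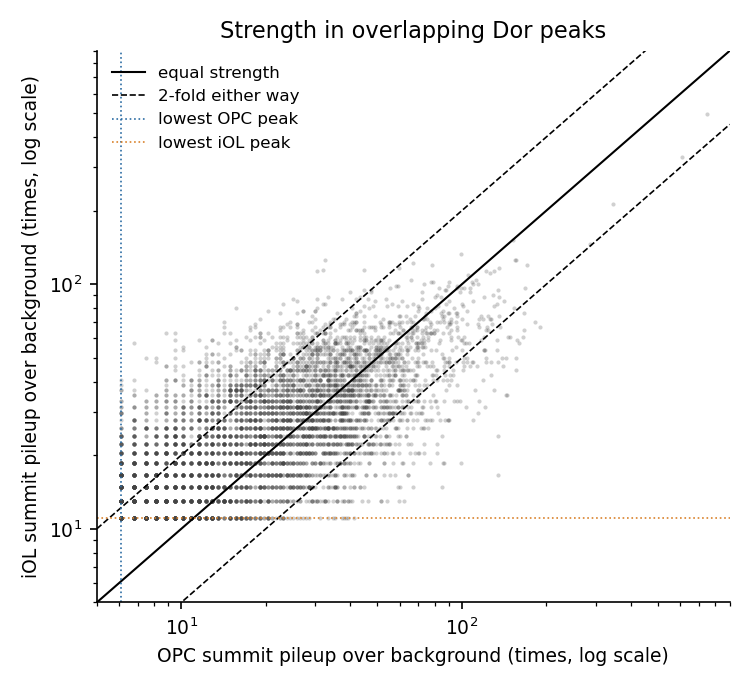
Strength of the iOL peak against strength of the OPC peak for the 5844 pairs (times the genome background of each library, both axes on a log scale). The solid line marks equal strength, the dashed lines a 2-fold difference either way, and the dotted lines the weakest listed peak of OPC (6.11 times) and of iOL (11.1 times). Most weak pairs lie above the solid line, and most of the strongest pairs lie below it.

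The pairs strongest in both libraries were named first. Coordinates are those of the build rn5, counted from 1. Genes, exons and introns were not assigned, because no rn5 annotation was used. The strongest pair in both libraries lay at chr4:142116059-142116756, with 1098 fragments in OPC and 269 in iOL. This was 745 and 498 times the background, a ratio of 0.668 (0.583 to 0.764), and the summits were 5 bases apart. At chr19:67047833-67048556 the pileups were 894 and 178 fragments, 607 and 330 times the background, with summits 32 bases apart. At chr1:151578607-151579889 they were 508 and 115 fragments, 345 and 213 times the background.

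These 3 peaks were stronger in OPC on this scale, and their ratio intervals lay below 1. At chr7:123018351-123019529 the difference was of the same kind, with 420 and 79 fragments and a ratio of 0.513 (0.398 to 0.654). The peak at chr2:217239361-217239984 was level in both, at 224 and 82 fragments, 152 times the background in each (ratio 0.999, 0.766 to 1.29). At chr1:83400686-83401586 the pileups were 229 and 68 fragments, with a ratio of 0.810 whose interval included 1 (0.609 to 1.07). These directions held on this scale and not on every other one. With the libraries scaled by their strong shared peaks instead, picked by OPC strength alone, the ratio was 1.02 at the chromosome 4 peak. It was 1.52 at the chromosome 2 peak and 1.23 at the last peak. In the authors' folds over the local background it was 1.31 at chr1:151578607-151579889.

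The pairs in which iOL most exceeded OPC were weak peaks in OPC. At chr15:89712731-89713111 OPC had 10 fragments and iOL 31, 6.78 and 57.4 times the background. The ratio was 8.46 (4.04 to 19.3), the peaks overlapped by 46 bases and their summits were 308 bases apart. At chr3:167089115-167089827 the pileups were 13 and 34 fragments (ratio 7.14, 3.67 to 14.7). At chr17:12479744-12480076 they were 14 and 34 fragments (ratio 6.63, 3.46 to 13.4). The pairs at chr5:147541192-147541573 and chr14:99320128-99320605 had ratios of 6.70 and 6.24. In each of these 5 pairs the iOL peak began before the OPC peak and their summits were 135 to 477 bases apart, so the values compare different bases. The ratio of the authors' folds was smaller, from 2.07 at the chromosome 17 pair to 3.73 at the chromosome 15 pair.

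The pairs in which iOL most fell short of OPC had strong OPC peaks, from 84.8 to 145 times the background, and iOL peaks from 14.8 to 35.2 times. At chr7:11432671-11434251 the OPC peak had 198 fragments, 134 times the background, and was 1581 bases wide. It lay over 2 iOL peaks of 13 and 9 fragments, with ratios of 0.179 (0.0937 to 0.313) and 0.124 (0.0559 to 0.240). The larger of these had its summit 20 bases from the OPC summit. At chr10:92252816-92253487 the pileups were 146 and 10 fragments (ratio 0.187) with summits 26 bases apart. At chr12:4692955-4693507 they were 125 and 8 fragments (ratio 0.175). At chr20:6447851-6448789 they were 214 and 19 fragments (ratio 0.242, 0.143 to 0.388) with summits 2 bases apart. The upper limit of the ratio was below 0.5 in all 5 of these pairs. In the authors' folds over the local background the chromosome 7 ratios were 0.604 and 0.447, and the others 0.250, 0.281 and 0.438, so that 1 of the 5 was no longer past 2-fold.

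Some paired peaks differed in shape more than in height. Among pairs of at least 20 times the background in both libraries, the OPC peak at chr14:21065683-21066022 was 340 bases wide, and the iOL peak over it, at chr14:21064670-21066166, was 1497 bases wide, 4.40 times as wide. The ratio of iOL to OPC strength in this pair was 1.80 (1.04 to 3.05). That iOL peak overlapped 2 OPC peaks. The reverse case was at chr16:80920918-80922881, where the OPC peak was 1964 bases wide and the iOL peak 323 bases, a ratio of 0.164. The strength ratio there was 0.509 (0.266 to 0.909). The widest OPC peak, chr12:48658471-48660771, spanned 2301 bases, and its iOL partner spanned 599 bases with its summit 1 base away. Their strengths were 85.5 and 72.2 times the background, a ratio of 0.845 (0.574 to 1.22). The widest iOL peak, chr3:167996765-167998469, spanned 1705 bases over an OPC peak of 1249 bases, with a strength ratio of 0.784 (0.481 to 1.24). The largest summit distance, 1426 bases, was at chr1:101909446-101911291, where the OPC peak was 1846 bases wide and the iOL peak of 431 bases lay at its far end. Its strength ratio was 0.647 (0.426 to 0.957).

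To allow for the shallower iOL library, each peak was asked whether the other library could have listed it. The lower 95% limit of its pileup was multiplied by the ratio of the backgrounds, and the peak was within reach if a Poisson count of that mean would meet the lowest listed pileup of the other library with a probability of at least 0.99. This takes equal strength in both stages as given. In OPC the rule required 49 fragments, 33.2 times the background, and 2537 peaks met it. Of these 901 had no iOL peak (35.5%, 33.7 to 37.4%). In iOL the rule required 13 fragments, 24.1 times the background, and 8963 peaks met it. Of these 5629 had no OPC peak (62.8%, 61.8 to 63.8%).

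Peaks within reach and without a partner were thus found in both lists. The main rule asks only for the lowest listed pileup, and at a higher local background more fragments are needed for a call. The local background was raised at 100% of the OPC peaks within reach, with and without a partner. Among iOL peaks within reach it was raised at 96.6% of those with a partner and 75.9% of those without. A stricter form of the rule asked for a call against the scaled local background. It left 1102 OPC peaks, of which 271 had no iOL peak (24.6%, 22.1 to 27.2%), and 7429 iOL peaks, of which 4617 had no OPC peak (62.1%, 61.0 to 63.3%). The 2 percentages are over peaks of different strength and do not compare the stages. At 50 to 100 times the background every peak of both lists was within reach by the main rule. No partner was found there for 23.5% of the OPC peaks (20.5 to 26.7%) and 6.37% for iOL (4.65 to 8.49%). At 100 times or more 5 of 103 OPC peaks and 0 of 27 iOL peaks had none, the latter with an upper limit of 12.8%. By the local form, 155 of the 183 OPC peaks without a partner at 50 times or more were within reach, and all 43 such iOL peaks. These contrasts are thus not free of the limits of reach.

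Peaks within reach that had no partner were weaker and narrower than those with one. In OPC they stood a median of 40.03 against 45.5 times above the background and were 681 against 840 bases wide. In iOL they stood 27.8 against 35.2 times above it and were 410 against 503 bases wide. The nearest peak of the other library was a median of 7586 bases away for the OPC peaks and 9450 bases away for the iOL peaks. It was within 1000 bases for 122 of the 901 OPC peaks and 593 of the 5629 iOL peaks.

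The strongest OPC peaks without an iOL peak all stood above 100 times the background. At chr10:104162391-104162963 there were 194 fragments, 132 times the background, with a gap of 20622 bases to the nearest iOL peak. At equal strength 71.1 fragments would be expected in iOL, where 13 would have sufficed for a call at the local background. At chr10:56110249-56111571 there were 182 fragments, 123 times the background, with a gap of 41278 bases. At chr17:12588839-12590060 there were 154 fragments, 104 times the background, with a gap of 27533 bases. The peaks at chr1:83211615-83212153 and chr14:86028348-86028793 had 149 fragments each, 101 times the background, with gaps of 16487 and 6027 bases. None of these 5 had an iOL peak within 5000 bases. The widest OPC peak without a partner, chr8:47542650-47544890, spanned 2241 bases at 44.8 times the background. It was within reach by the main rule but not by its local form.

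The strongest iOL peaks without an OPC peak were lower, and most lay closer to an OPC peak. At chr5:138712114-138712609 there were 46 fragments, 85.2 times the background. At equal strength 126 fragments would be expected in OPC, where 24 would have sufficed, and another OPC peak lay 370 bases away. At chr3:74402337-74402817 there were 42 fragments, 77.7 times the background, with a gap of 2127 bases. At chr9:15645854-15646187 there were 42 fragments and a gap of 649 bases, and at chr20:6941792-6942237 there were 41 fragments, 75.9 times the background, and a gap of 2119 bases. The peak at chr6:146389325-146389692, with 39 fragments and 72.2 times the background, had the largest gap of those named, 10969 bases. This was below the median of 11505 for unshared iOL peaks.

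Shared peaks were found on all 20 chromosomes. The share of OPC peaks with an iOL partner ran from 7.48% on chromosome 15 to 12.3% on chromosome 10, and the share of iOL peaks with an OPC partner from 7.85% to 14.3% on the same chromosomes. The interval of the OPC share was 11.3 to 13.5% on chromosome 10 and 6.44 to 8.62% on chromosome 15. Chromosome 10 also had more strong peaks, with 95 OPC peaks at 50 times the background or more among 3508, against 23 among 2341 on chromosome 15. The number of iOL peaks per OPC peak was lowest on chromosome 12, at 0.843, and highest on chromosome 13, where the numbers were equal. The median strength ratio of the pairs ran from 1.06 on chromosome 10 to 1.399 on chromosome 4.

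**Figure D5:**
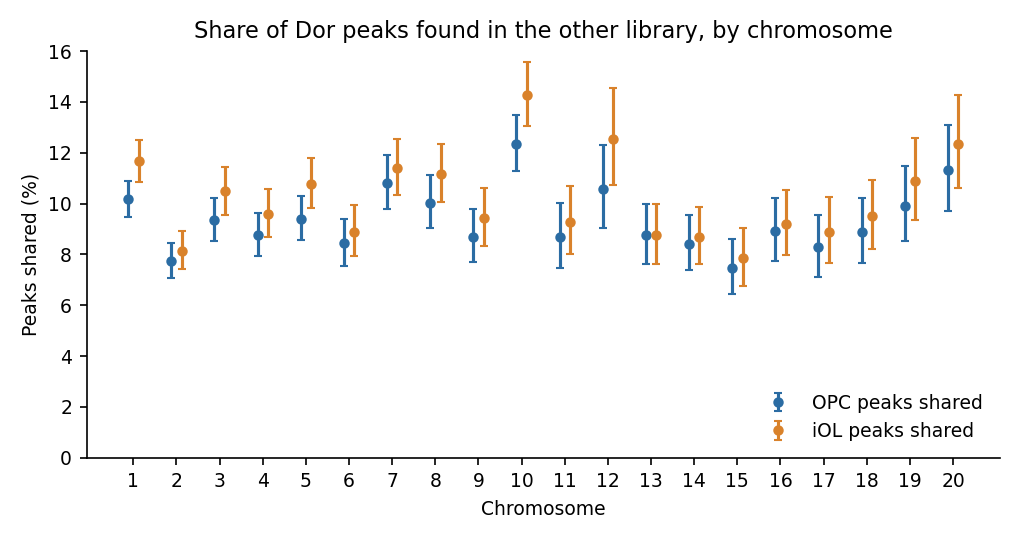
Share of OPC peaks (blue) and of iOL peaks (orange) that overlapped a peak of the other library, in percent, for chromosomes 1 to 20. Bars are exact 95% intervals for counting error. Chromosome 10 is highest in both libraries, at 12.3% and 14.3%, and chromosome 15 lowest, at 7.48% and 7.85%.

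Windows of 1 Mb were also compared, 528 of which held at least 60 peaks of both lists together. The iOL share of the peaks was 47.9% over all peaks, and the median window had 45.6%. It was lowest at chr8:47000001-48000000, with 67 OPC and 26 iOL peaks (28.0%, 19.1 to 38.2%). The wide OPC peak without a partner on chromosome 8 lies in this window. Next was chr1:152000001-153000000 with 44 and 18 peaks (29.0%). The share was highest at chr12:16000001-17000000, with 22 OPC and 38 iOL peaks (63.3%, 49.9 to 75.4%), and at chr10:3000001-4000000, with 24 and 41 peaks (63.1%). These windows are the extremes of 528 and were picked for their shares, so the values describe them and carry no test.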

How the data were processed

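The authors deposited 1 peak list per library in narrowPeak format. The submitters' processing notes name Bowtie2 2.4.4, MACS2 2.2.7.1, deepTools 3.5.1 and rn5, without their roles. The sources used here do not say what was pooled, whether a control entered the calling or what was done with duplicates, and no control library was analysed. Each deposited row gives start, end, summit, a score, a fold (a linear ratio of summit pileup to local background) and −log10 p and −log10 q. The deposited score was checked against the −log10 p and used for nothing else. No deposited −log10 p was under 5.

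Pileup and local background were recovered from fold and p, taking a pseudocount of 1 in the fold and a Poisson p. Exactly 1 whole-number pileup came within 0.001 of the −log10 p for 100% of the peaks of both lists, and the recovery was tested on simulated data. The genome background is the lowest local background of a list and counts mitochondrial fragments too. Medians have order-statistic intervals, shares Clopper-Pearson intervals, and ratios of single pairs exact conditional binomial intervals. The analysis used Python 3.11.15, numpy 2.4.6, scipy 1.17.1 and pandas 2.3.3.

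The regions named are the 6 pairs strongest in both libraries, the 5 pairs with the most extreme interval of the strength ratio each way, the 5 strongest unshared peaks of each library, the widest peaks, the extremes of width ratio and summit distance among pairs of at least 20 times the background, and the extreme 1 Mb windows. The widest unshared OPC peak was added after its values were seen. Members and lists were chosen with earlier results of these data known. The mature oligodendrocyte library was not used. Alternatives tried were stricter q or fold, more overlap, 200 bases at each summit, single partners, all sequences but the mitochondrial genome, other scalings and a reach probability of 0.9. Thinning, pairs of at least 20 times and the local form of the reach rule were added after seeing the data.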

Additional observations from a re-analysis of the deposited data

How the results depend on the processing

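Of 72 recomputed values of the main results, 2 reversed, 44 moved past their interval or, for counts, by over 1.5 times, and 26 moved less, counts among them. With a −log10 q of at least 5, the shared percentages were 10.4 (OPC) and 14.4 (iOL), the summit distance 156 bases, the width ratio 0.772, the pairs 4525, of which 836 and 209 were past 2-fold up and down, and the percentages within reach without a partner 32.3 (OPC) and 57.9 (iOL). With a fold of at least 5, the shared percentages were 12.3 and 10.9, the distance 155 bases, the width ratio 0.760, the strength ratio 1.19, the iOL percentage without a partner 54.3, and the pairs 4433, of which 697 and 229 were past 2-fold. With an overlap of 50% of both peaks there were 3147 pairs, shared percentages of 5.05 and 5.49, a distance of 120 bases, a width ratio of 0.887, percentages without a partner of 60.1 and 77.9, and 587 and 142 pairs past 2-fold up and down. With 200 bases at each summit the shared percentages were 5.40 and 5.87, and those without a partner 57.1 and 77.1. Thinned OPC peaks were shared at 17.1%. A probability of 0.9 gave 46.3% and 77.7% without a partner. The strength ratio of the 2692 pairs of at least 20 times in both reversed to 0.992. Of them 131 and 179 were past 2-fold up and down, with a distance of 141 bases and a width ratio of 0.702. Over all pairs the strength ratio reversed to 0.971 with the fold over the local background, with 166 and 239 pairs past 2-fold. Without the estimated mitochondrial fragments, 35.9% of the OPC and 44.7% of the iOL background, it was 1.45, with 1696 and 189 pairs past 2-fold and 32.3% (OPC) and 68.4% (iOL) without a partner. Scaled by strong shared peaks, picked by OPC strength alone, it was 1.90, with 2688 and 58 pairs past 2-fold. The percentages without a partner were then 23.8 and 77.7. The local form of the reach rule gave 24.6% for OPC. Of 48 recomputed ratios of the named pairs, 19 moved, 0 of those past 2-fold crossed a ratio of 1, and 1 (chr7:11432671-11434251 with its larger iOL peak, 0.604 in the folds) was no longer past 2-fold. The cause of these shifts was not tested. No paired analysis was possible because both groups hold a single library.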

Other observations

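At 50 times the background or more, 183 OPC peaks and 43 iOL peaks had no partner. Of the 183 OPC peaks, 45 had another OPC peak of that strength within 50000 bases (24.6%, exact Clopper-Pearson 95% interval 18.5 to 31.5%), against 118 of the 678 shared ones (17.4%, 14.6 to 20.5%). Of the 43 iOL peaks, 5 had such a neighbour (11.6%, 3.89 to 25.1%), against 60 of the 659 shared ones (9.10%, 7.02 to 11.6%). The intervals overlap within each library. On chromosome 17, one of the pairs in which iOL most exceeded OPC (chr17:12479744-12480076) and one of the strongest OPC peaks without an iOL peak (chr17:12588839-12590060) lay 108762 bases apart.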
